A study of Neotoma lepida with 16 samples.

Results

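The Cyp3a probes of a rat array were followed across the livers of 16 desert woodrats (Neotoma lepida), wild-caught rodents that eat chemically defended plants. The members were all probes whose gene name in the scanner files, without the suffix for predicted genes, was Cyp3a3, Cyp3a11, Cyp3a13, Cyp3a18 or Cyp3a62. This gave 5 of the 35561 genes or transcripts named on the array and 5 of its 41012 distinct probes, 1 probe and 1 spot per gene. They were Cyp3a3 (A_42_P785801, designed on NM_013105), Cyp3a11 (A_44_P544661, NM_153312), Cyp3a18 (A_42_P679814, NM_145782), Cyp3a62 (A_44_P1009594, NM_001024232) and Cyp3a13 (A_44_P1037342, NM_147206). All 5 passed the filter for dim probes, but Cyp3a13 passed it narrowly, as given below.

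The study crossed 2 populations with 2 diets, with 4 animals per group. The groups were Mojave animals fed creosote bush, Mojave animals fed juniper, Great Basin animals fed creosote bush and Great Basin animals fed juniper. Sex was unevenly spread: Mojave creosote had 4 males and no female, whereas the remaining groups had 2 of either sex. All animals had spent 3 months in captivity on rabbit chow and then received a rising amount of their plant in the chow over 5 days. Ages were not given in the labels, and no group stayed on chow alone, so lower on creosote can equally be read as higher on juniper.

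Enzymes of the CYP3A subfamily are haem-containing monooxygenases of the endoplasmic reticulum. In mammalian liver they oxidise a wide range of lipophilic foreign compounds, steroids and bile acids. Their transcription is controlled in large part by the nuclear receptors PXR (gene Nr1i2) and CAR (gene Nr1i3), which bind xenobiotics or respond to them, and their catalysis depends on electrons from P450 oxidoreductase (Por) and, for many substrates, cytochrome b5 (Cyb5). Creosote bush resin is rich in phenolics, among them nordihydroguaiaretic acid, and juniper foliage is rich in terpenes. The comparison of diets asks how the liver differs between these kinds of plant chemistry, and the crossed populations ask whether that difference depends on the animals' origin.

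Each array carried the RNA of 1 animal in the red dye (Cy5) and an equimolar pool of all 16 livers in the green dye (Cy3), with no dye exchange. A level is therefore given as a log2 ratio of animal over pool, where 0 is the pool. The probes are rat sequences hybridised with woodrat RNA. CYP3A genes resemble each other closely, and which woodrat transcript or transcripts each probe bound was not tested. Levels of different probes are for this reason not set against each other. In whole liver RNA, fewer cells of a type and less RNA per cell cannot be told apart.

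Between 46.4% and 76.2% of probes were well above background in the red channel, and the arrays of slide 1 were the dimmest, at 49.2% on average. Each of the 4 slides held 1 animal of every group, so slide did not separate the groups. Each group, however, lay at 1 position on every slide, so position on the slide and group cannot be told apart. Of 12 hepatocyte marker genes on the array, 10 were measured, and the probes for Apoa1 and Tf were well above background on no array. A member or other probe was called when its limma p-value, adjusted by the Benjamini-Hochberg method over all kept probes, was under 0.05.

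The plain result is that 3 of the 5 Cyp3a probes, Cyp3a3, Cyp3a11 and Cyp3a18, were lower on creosote than on juniper, in both populations, and none was called higher. Cyp3a3 differed most, by 2.81-fold in Mojave and 2.27-fold in Great Basin woodrats. Cyp3a11 differed by 1.44-fold and 1.46-fold, and Cyp3a18 by 1.32-fold in either population. These sizes depended on the processing, and most so for the dimmer probes Cyp3a11 and Cyp3a18. In the log2 ratios deposited by the authors, the Mojave and Great Basin differences were -1.69 and -1.41 for Cyp3a3. They were -1.19 and -1.20 for Cyp3a11, and -0.70 and -0.79 for Cyp3a18. Cyp3a62 varied from animal to animal more than nearly any other probe, without a called difference, and Cyp3a13 lay close to the background. Among all probes tested, 6.23% were called lower on creosote in Mojave woodrats and 1.9% in Great Basin woodrats. The shares called higher were 3.81% in Mojave and 2.02% in Great Basin woodrats, which makes 10% and 3.92% in either direction. Of the calls over all probes 37.9% were higher on creosote in Mojave and 51.6% in Great Basin woodrats, against 13.6% and 63.9% when arrays were centred on their median in place of loess.

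**Figure D1:**
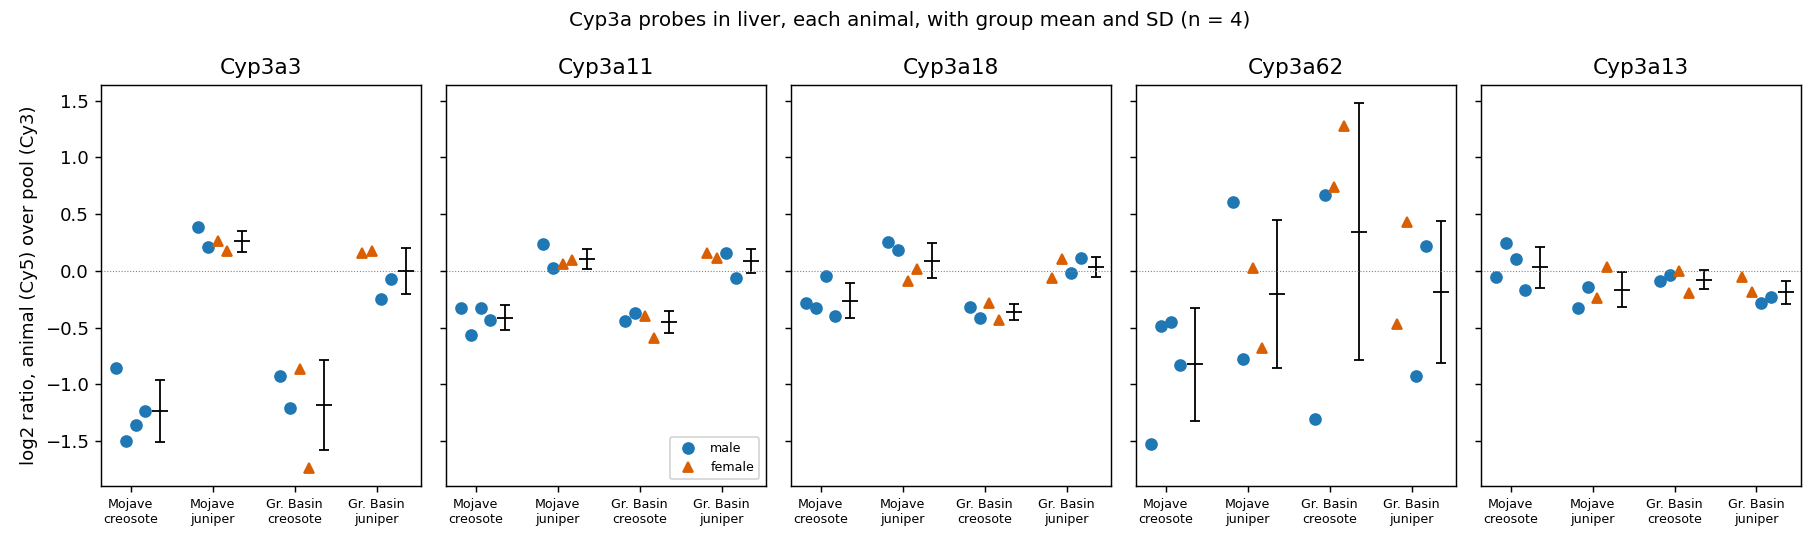
Normalised log2 ratio of animal over pool (vertical axis) for each of the 5 Cyp3a probes, with 1 point per animal by group, circles for males and triangles for females, and the group mean and SD (n = 4) beside them. The Cyp3a3 and Cyp3a11 points on creosote lie below all points on juniper of the same population, while the Cyp3a62 points spread from -1.53 to 1.27.

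Cyp3a3 encodes a steroid- and drug-oxidising P450 of rat liver. In the Mojave animals on creosote its log2 ratios were -0.86, -1.50, -1.36 and -1.24, against 0.39, 0.21, 0.26 and 0.17 in the Mojave animals on juniper. In the Great Basin animals on creosote they were -0.93, -1.21, -0.87 and -1.73, against 0.16, 0.17, -0.25 and -0.08 in the Great Basin animals on juniper. All 8 creosote livers lay below the pool and below all 8 juniper livers, so the diets did not overlap in either population. A separation in this direction was found for 9.77% of all probes in Mojave and 5.13% in Great Basin woodrats.

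The means of Cyp3a3 were -1.24 ± 0.27 in Mojave creosote and 0.26 ± 0.10 in Mojave juniper (SD, n = 4 each). The limma difference was -1.49 ± 0.19 (SE; 95% interval -1.89 to -1.09; adjusted p = 0.000299). In Great Basin the means were -1.18 ± 0.40 on creosote and 0.00 ± 0.20 on juniper (SD, n = 4 each), a limma difference of -1.18 ± 0.17 (SE; 95% interval -1.55 to -0.81; adjusted p = 0.00108). These differences exceeded the spread between animals. Only 0.0464% of all probes had a more negative diet difference in Mojave and 0.0895% in Great Basin woodrats, and 0.6% and 0.199% were at least 2-fold lower. Within single slides, where 1 animal of each group can be set beside the others, the Mojave difference ran from -1.70 to -1.25 and the Great Basin difference from -1.89 to -0.68, negative on 4 of 4 slides each.

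The Cyp3a3 signal was far from background. The red mean signal ran from 185 to 1976 scanner units over the 16 animals, and the green signal of the pool from 353 to 784, with no saturated spot. The spread of animals around their group means was 0.28 on the log2 scale (residual SD), larger than that of 91.9% of probes, whose median was 0.13. In Great Basin males alone, with 2 animals a diet, the difference was -0.90 and was not called (adjusted p = 0.0782).

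Cyp3a11 bears the name of a PXR-responsive mouse enzyme that is among the main CYP3A forms of mouse liver. The probe, however, was designed on a rat sequence, and the current rat gene name of that sequence was not checked. Its values can therefore not be taken as those of a counterpart of the mouse enzyme. The log2 ratios of Cyp3a11 were -0.33, -0.56, -0.33 and -0.43 in Mojave creosote, against 0.23, 0.03, 0.06 and 0.10 in Mojave juniper. In Great Basin they were -0.44, -0.37, -0.40 and -0.59 on creosote, against 0.15, 0.12, 0.16 and -0.07 on juniper. The diets again did not overlap in either population, and the creosote livers of both populations occupied almost the same range.

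The limma difference of Cyp3a11 was -0.53 ± 0.09 in Mojave (SE; 95% interval -0.71 to -0.34; adjusted p = 0.00145). In Great Basin it was -0.54 ± 0.08 (SE; 95% interval -0.71 to -0.37; adjusted p = 0.00103). Its residual SD was 0.11, close to the median probe, so that this smaller difference was also well outside the spread between animals. It was negative on 4 of 4 slides in both populations, from -0.59 to -0.39 in Mojave and from -0.75 to -0.34 in Great Basin woodrats. Groups without overlap and lower on creosote were found for 9.77% of all probes in Mojave and 5.13% in Great Basin woodrats.

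The size for Cyp3a11 depended on the handling of dim spots. Its red signal ran from 68.2 to 232 units and the pool's from 56.9 to 133, so the offset of 50 added to both dyes draws the ratio towards 0. With an offset of 10 the differences were -0.82 in Mojave and -0.81 in Great Basin woodrats, and in the deposited processed ratio -1.19 and -1.20, all called. From the red channel alone, without division by the pool, the Great Basin difference was -0.23 and was not called (adjusted p = 0.348), and in Great Basin males alone it was -0.45 (adjusted p = 0.16).

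Cyp3a18 encodes another rat liver P450 that hydroxylates steroids. Its log2 ratios were -0.29, -0.33, -0.04 and -0.40 in Mojave creosote, against 0.25, 0.18, -0.09 and 0.02 in Mojave juniper. In Great Basin they were -0.31, -0.42, -0.29 and -0.43 on creosote, against -0.06, 0.10, -0.02 and 0.11 on juniper. The diets did not overlap in Great Basin woodrats, where 5.13% of all probes were separated in this direction. In Mojave woodrats the diets did overlap, because creosote animal 3, at -0.04, was above juniper animal 3, at -0.09.

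The limma difference of Cyp3a18 was -0.40 ± 0.09 in Mojave (SE; 95% interval -0.60 to -0.20; adjusted p = 0.0129). In Great Basin it was -0.40 ± 0.09 (SE; 95% interval -0.58 to -0.21; adjusted p = 0.0171). On single slides it was negative on 3 of 4 in Mojave, from -0.54 to 0.05, and on 4 of 4 in Great Basin woodrats, from -0.52 to -0.30. Both calls were the least secure of the 3 genes. The Mojave call was lost without juniper animal 1 (adjusted p = 0.0691) or juniper animal 2 (adjusted p = 0.056). The Great Basin call was lost without juniper animal 2 (adjusted p = 0.0613) or juniper animal 4 (adjusted p = 0.0563), and in males alone (adjusted p = 0.208). From the red channel alone neither was called, at -0.31 in Mojave (adjusted p = 0.48) and -0.25 in Great Basin woodrats (adjusted p = 0.432). In the deposited processed ratio the differences were larger, -0.70 and -0.79, and both were called.

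**Figure D2:**
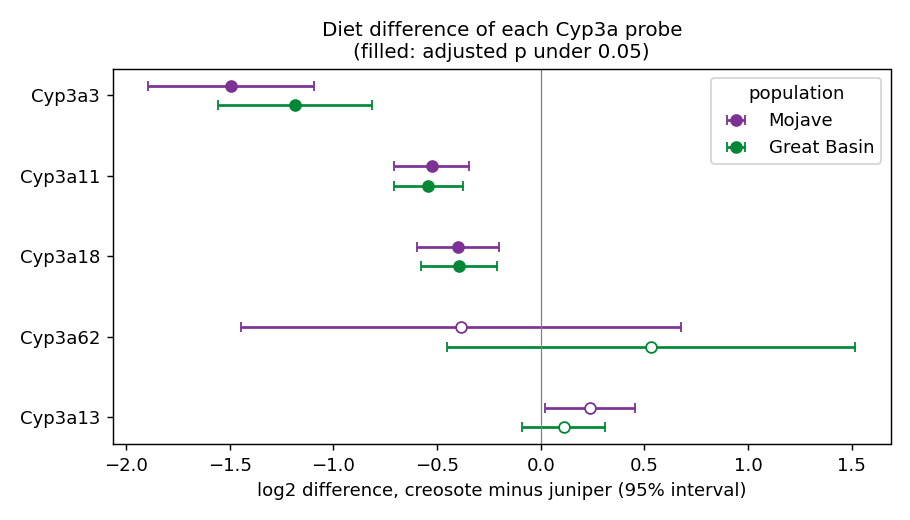
Log2 difference of creosote minus juniper (horizontal axis) from the limma model, with 95% intervals, for each Cyp3a probe in Mojave (purple) and Great Basin (green) woodrats, filled where the adjusted p was under 0.05. The intervals of Cyp3a3, Cyp3a11 and Cyp3a18 lie below 0 in both populations, and those of Cyp3a62 span 0 widely. The Cyp3a13 interval lies just above 0 in Mojave, without a call after adjustment, and spans 0 in Great Basin woodrats.

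Cyp3a62 encodes a CYP3A form described in rat liver and intestine. Its log2 ratios were -1.53, -0.48, -0.45 and -0.83 in Mojave creosote, against 0.61, -0.78, 0.03 and -0.68 in Mojave juniper. They were -1.30, 0.67, 0.74 and 1.27 in Great Basin creosote, against -0.47, 0.43, -0.92 and 0.22 in Great Basin juniper. Every group of Cyp3a62 values spanned at least a 2-fold range, and within Great Basin creosote animal 1 stood far below the other 3. All 4 Mojave animals on creosote lay below the pool, and the other groups held animals on both sides of it.

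The residual SD of Cyp3a62 was 0.76, larger than that of 99.8% of probes. The red signal of this spot ran from 90.4 to 959 units, a 10.6-fold range, while the pool on the same spots ran from 155 to 288 units, a 1.86-fold range. The red signal was well above background on 16 of 16 arrays. The lowest ratios, of Mojave creosote animal 1 and Great Basin creosote animal 1, came from the dimmest red spots, at 105 and 90.4 units, and the part of brightness in the spread was not tested. The limma diet difference was -0.38 ± 0.50 in Mojave (SE; 95% interval -1.45 to 0.68; adjusted p = 0.734) and 0.53 ± 0.46 in Great Basin woodrats (SE; 95% interval -0.45 to 1.52; adjusted p = 0.625). The Mojave interval includes a difference of the size of Cyp3a11 in both directions, so one of that size was not detectable for Cyp3a62 in these animals. The Great Basin interval reaches up to 1.52 but ends at -0.45, short of the -0.54 of Cyp3a11. Without Mojave juniper animal 1 the Mojave value turned to 0.14, and without Great Basin creosote animal 1 the Great Basin value was 1.06, neither called.

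The sexes were set apart for Cyp3a62 in 1 of the 3 groups that held both. In Great Basin creosote the males had -1.30 and 0.67, and both females lay above them, at 0.74 and 1.27. In Great Basin juniper the sexes overlapped, with males at -0.92 and 0.22 and females at -0.47 and 0.43. In Mojave juniper they overlapped too, with males at 0.61 and -0.78 and females at 0.03 and -0.68. The male minus female term was -0.47 ± 0.38 (SE; 95% interval -1.28 to 0.33; adjusted p = 0.994 by limma), and without slide 1 it was 0.17. Such a separation was not particular to Cyp3a62. In Great Basin juniper the males lay below the females for Cyp3a3 (-0.25 and -0.08, against 0.16 and 0.17) and Cyp3a13 (-0.29 and -0.23, against -0.19 and -0.05). In Mojave juniper the Cyp3a18 males, at 0.18 and 0.25, lay above the females, at -0.09 and 0.02. For the other combinations of Cyp3a probe and group the sexes overlapped. The share of all probes separated in this way was not counted. With so few animals of either sex in a group, such a separation easily arises without any sex difference. These separations are therefore descriptions and do not show a difference between the sexes.

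Cyp3a13 likewise bears the name of a mouse CYP3A enzyme, of liver and intestine, on a rat sequence whose current gene name was not checked. Its red signal, from 50.5 to 77.6 units, was well above background on 6 of 16 arrays, namely on 2 in Mojave creosote, 1 in Mojave juniper, 2 in Great Basin creosote and 1 in Great Basin juniper. The pool was well above background on 4 arrays. Its log2 ratios were -0.06, 0.24, 0.10 and -0.17 in Mojave creosote, against -0.33, -0.14, -0.24 and 0.03 in Mojave juniper. In Great Basin they were -0.09, -0.03, 0.00 and -0.19 on creosote, against -0.05, -0.19, -0.29 and -0.23 on juniper. Both pairs of groups overlapped. The differences were 0.24 ± 0.10 in Mojave (SE; adjusted p = 0.171 by limma) and 0.11 ± 0.09 in Great Basin woodrats (SE; adjusted p = 0.617). With median centring in place of loess the Mojave difference was 0.42 and was called (adjusted p = 0.0158).

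**Figure D3:**
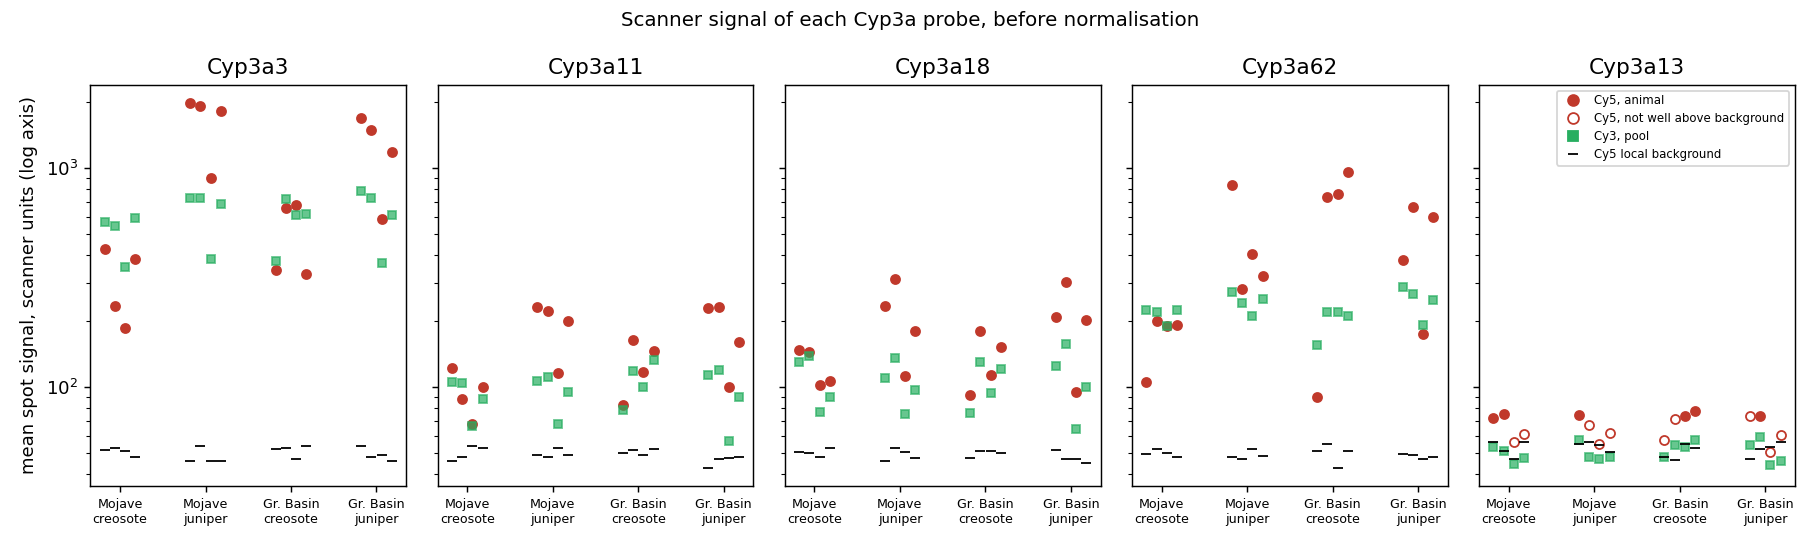
Mean spot signal before normalisation, in scanner units on a log axis, for each probe and animal by group, with the animal's red signal as circles (open where not well above background), the pool's green signal as squares and the local red background as dashes. The Cyp3a3 circles on juniper stand above the squares and most on creosote below, the Cyp3a62 circles scatter around nearly level squares, and Cyp3a13 lies close to the dashes.

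No Cyp3a probe was called between populations. On creosote the Mojave minus Great Basin difference was -0.05 ± 0.19 for Cyp3a3 (SE; 95% interval -0.45 to 0.35; adjusted p = 0.938 by limma), 0.03 ± 0.09 for Cyp3a11 (adjusted p = 0.918) and 0.05 ± 0.09 for Cyp3a18 (adjusted p = 0.861). Cyp3a62 had the widest gap on creosote, at -0.93 ± 0.50 (SE; 95% interval -2.00 to 0.13; adjusted p = 0.423). Among all probes 0.0894% were called in this comparison.

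On juniper, Cyp3a3 was 0.26 ± 0.17 in Mojave minus Great Basin animals (SE; 95% interval -0.11 to 0.63; adjusted p = 0.757 by limma). The Cyp3a3 groups just failed to overlap, with the lowest Mojave animal at 0.174 and the highest Great Basin animal at 0.171, and 3.75% of all probes showed such a separation in this direction. The other 4 probes differed by -0.02 to 0.06. By limma 0 probes of any gene were called on juniper, although 2469 had an unadjusted p under 0.05. An offset of 10 gave 1 call, no filter on dim probes 3, and leaving out 1 animal up to 15, the most without Mojave juniper animal 2.

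The test of whether the diet difference itself depended on population called no Cyp3a probe. The Mojave minus Great Basin difference of the diet differences was -0.31 ± 0.26 for Cyp3a3 (SE; 95% interval -0.85 to 0.24; adjusted p = 0.661 by limma). It was 0.02 for Cyp3a11 (95% interval -0.23 to 0.26; adjusted p = 0.973) and 0.00 for Cyp3a18 (95% interval -0.27 to 0.27; adjusted p = 0.995). For Cyp3a62 it was -0.92 ± 0.68 (SE; 95% interval -2.37 to 0.53; adjusted p = 0.611). Neither bound of the Cyp3a11 or Cyp3a18 interval was as far from 0 as the gene's diet differences, while for Cyp3a62 a several-fold dependence on population stayed within the interval. By limma 0 probes were called over the whole array, with 4064 at an unadjusted p under 0.05. The number of calls in this comparison moved with the processing, to 215 without the sex term, 31 with slide as a block and 2967 with median centring, and it reached 498 without Great Basin creosote animal 4, but no Cyp3a probe was among them under any alternative tried. The Cyp3a3 value moved as well, to -0.80 with median centring (adjusted p = 0.0939 by limma), -0.63 in males alone, -0.59 from the red channel alone and -0.10 without slide 1.

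Sex showed no called difference either. The male minus female term was 0.00 ± 0.14 for Cyp3a3, 0.02 ± 0.06 for Cyp3a11, 0.09 ± 0.07 for Cyp3a18 and -0.08 ± 0.08 for Cyp3a13 (SE, limma), with adjusted p between 0.994 and 1. Over all probes 0.00662% were called. Since the Mojave creosote group had no female, this term rests on the other 3 groups.

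Over the 16 arrays, Cyp3a3 and Cyp3a11 moved together with a Pearson r of 0.95, Cyp3a3 and Cyp3a18 with 0.84, and Cyp3a11 and Cyp3a18 with 0.86. After removal of the group means the same pairs had 0.58, 0.21 and 0.27, so most of the common movement lay between the groups. Cyp3a62 had r from -0.22 to 0.00 with the other probes over the arrays. After removal of the group means its r ran from -0.34 with Cyp3a3 to 0.14 with Cyp3a18. These values are descriptions, and the arrays share 1 pool and the 4 slides.

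Among 6490 genes with a symbol, those whose ratios over the 16 arrays were most like Cyp3a3 were B3gat2, a glucuronyltransferase (r = 0.95), Ubqln1, a ubiquitin-binding shuttle protein (r = 0.94), and Txnl1, a thioredoxin-like protein (r = 0.94). Those most like Cyp3a11 were B3gat2 (r = 0.94), Cyb5, which is cytochrome b5 (r = 0.94), and Txnl1 (r = 0.93). After removal of the group means these r were 0.53, 0.32 and 0.31 for Cyp3a3 and 0.59, 0.43 and 0.41 for Cyp3a11. Among those most like Cyp3a18 were Ech1, an enzyme of fatty acid oxidation (r = 0.89), and the liver glycogen synthase gene Gys2 (r = 0.88), with 0.60 and 0.58 after removal of the group means. Cyp3a62 was most like P2ry2, a nucleotide receptor (r = 0.80), Prodh2, of hydroxyproline breakdown (r = 0.79), and the phosphatase gene Ppm1j (r = 0.78), none called for diet, with 0.81, 0.72 and 0.73 after removal of the group means. Cyp3a13 was most like Yme1l1, a mitochondrial protease (r = 0.84), Cckar, a cholecystokinin receptor (r = 0.76), and catalase, Cat (r = 0.75), with 0.83, 0.67 and 0.65 after removal of the group means. The Cyp3a13 ratios come from a spot near background, well above it on 6 of 16 arrays, which limits what these r can show.

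The electron donors, haem enzymes and other partners of the P450s were set beside the Cyp3a genes. Of 8 such genes tested, 5 were lower on creosote in Mojave and 4 in Great Basin woodrats, and none was higher. Their median log2 difference was -0.68 in Mojave and -0.53 in Great Basin woodrats, against -0.01 and 0.00 over all probes. The shares of all probes called lower were 6.23% and 1.9%. Among these partners Cyb5b, Pgrmc1 and Hmox1 were called in neither population. Cyb5 differed by -1.32 in Mojave (adjusted p = 0.000193 by limma) and by -1.52 in Great Basin woodrats (adjusted p = 4.82e-05), and it kept its call without any single animal. Por, the reductase that feeds electrons to every microsomal P450, differed by -1.19 (adjusted p = 0.00504) and -0.997 (adjusted p = 0.0176). The Great Basin call of Por was lost without creosote animal 1, juniper animal 2 or juniper animal 4, at adjusted p between 0.0609 and 0.066.

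Alas1, the first enzyme of haem synthesis, differed by -1.29 in Mojave (adjusted p = 0.0412 by limma) and -1.55 in Great Basin woodrats (adjusted p = 0.0211). Its Mojave call held in only 4 of the 16 fits that each left out 1 animal, with adjusted p up to 0.113, and was lost with the replicate number as a block (adjusted p = 0.074). Cyb5r3, a reductase of cytochrome b5, was called in Mojave only, at -0.72 (adjusted p = 0.0317), and its second probe was at -0.05. Fech, the last enzyme of haem synthesis and named after its values were seen, completed both counts, at -0.63 and -0.46. The count fell to 3 in Mojave without creosote animal 2, juniper animal 2 or juniper animal 4, and to 2 in Great Basin without creosote animal 1.

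The regulators did not share this direction. Nr1i2, the PXR gene, named for its role, was at 0.12 in Mojave (adjusted p = 0.569 by limma) and 0.30 in Great Basin woodrats (adjusted p = 0.0807). Nr1i3, the CAR gene, was higher on creosote, by 0.82 in Mojave (adjusted p = 0.000595) and 0.67 in Great Basin woodrats (adjusted p = 0.00187), on the brighter of its 2 probes, while the other was at 0.06 and -0.01. Of 13 regulators tested, 3 were higher and 1 lower in Mojave, and 2 higher and 1 lower in Great Basin woodrats, with medians of 0.11 and 0.07. Among all probes 3.81% and 2.02% were called higher, and 6.23% and 1.9% lower. The regulator called lower was Hspca, an Hsp90 chaperone gene, at -1.10 and -1.08. It has 4 probes, of which a second was also called in both populations and the other 2 in neither, and its Great Basin call was lost without creosote animal 4, juniper animal 2 or juniper animal 4.

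The remaining calls among regulators were Nr3c1, the glucocorticoid receptor gene, at 0.50 in Mojave, and Ncoa1, a coactivator gene, at 0.35 and 0.33. A second Nr3c1 probe was at 0.85 in Mojave, also called, and a second Ncoa1 probe was at -0.07 and 0.14, not called. Nr3c1 lost its call without Mojave creosote animal 1 or 4 or juniper animal 1 or 3. Ncoa1 kept its Mojave call in 11 and its Great Basin call in 4 of the 16 fits without 1 animal, and under median centring its Mojave value turned to -0.10.

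A further list held 19 other tested genes, rodent targets of PXR or CAR and related P450s, with Por and Alas1 among them. Of these, 6 were lower and 0 higher on creosote in Mojave woodrats. In Great Basin woodrats 7 were lower and 1 higher. The medians were -0.43 and -0.16. Por and Alas1, already counted among the P450 partners, were among the lower genes in both populations. Among all probes 6.23% were called lower and 3.81% higher in Mojave, and 1.9% and 2.02% in Great Basin woodrats. The lowest was the P450 gene Cyp2b15, at -1.57 in Mojave (adjusted p = 0.00424 by limma) and -1.86 in Great Basin woodrats (adjusted p = 0.00134), but its second probe was at 0.31 and 0.15, not called. Cyp2b13 was at -1.30 and -1.65, called in both, and its second probe was at -0.26, not called, and -0.44, called. Cyp2c7 was at -0.74 in Mojave, not called (adjusted p = 0.0552), and at -1.48 in Great Basin woodrats (adjusted p = 0.00129). Of its 2 other probes, 1 was at -0.73, not called, and -1.90, called, and the other at 0.03 and -0.11, not called. The 1 gene called higher was Gstm2, a glutathione transferase, at 1.30 in Great Basin woodrats (adjusted p = 0.0206), a call lost without creosote animal 1 or 3 or juniper animal 1, 2 or 4. The Great Basin count of lower genes was 4 without creosote animal 1. No gene of these 3 lists was called between populations or in the dependence of diet on population.

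Hepatocyte markers were higher on creosote where they were called, the opposite direction to Cyp3a3, Cyp3a11 and Cyp3a18. Summed over 10 genes as animal-over-pool ratios, they ran from 14.6 to 16.9 in Mojave creosote, against 8.87 to 10.3 in Mojave juniper. They ran from 15.3 to 18.3 in Great Basin creosote, against 9.26 to 11 in Great Basin juniper. In each population 5 of the 10 were called higher on creosote and 0 lower, with medians of 0.58 in Mojave and 0.73 in Great Basin woodrats. Over all probes 3.81% and 2.02% were called higher. Tat and Ambp were called in both populations, Alb, Ttr and Fgb in Mojave only, and Apoa2, Ahsg and Cps1 in Great Basin woodrats only. Serpina1, not called, was at 0.00 and 0.03. The 4 pancreas markers other than Amy2 were at 0.00 to 0.59 in Mojave and -0.05 to 0.22 in Great Basin woodrats, with only Ela1, an elastase gene, called among them, in Mojave. Amy2, an amylase gene, was called higher in both, at 2.23 and 1.89. The sums over 5 pancreas genes were 6.17 to 7.74 in Mojave creosote, against 3.96 to 4.67 in Mojave juniper, and 5.43 to 7.35 in Great Basin creosote, against 4.69 to 5.10 in Great Basin juniper.

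The intestine markers had 0 of 4 called, and their sums overlapped between diets, at 3.66 to 4.19 in Mojave creosote, against 3.91 to 4.46 in Mojave juniper, and 3.54 to 4.03 in Great Basin creosote, against 3.89 to 4.12 in Great Basin juniper. The stellate sums over 4 genes did not overlap between diets in either population, at 4.09 to 5.37 in Mojave creosote, against 3.13 to 3.86 in Mojave juniper, and 4.42 to 5.45 in Great Basin creosote, against 2.88 to 4.17 in Great Basin juniper. Of these genes 0 were called in Mojave and 1, higher, in Great Basin woodrats. The Kupffer sums over 4 genes were 3.57 to 3.81 in Mojave creosote, against 3.51 to 4.17 in Mojave juniper, and 3.50 to 4.12 in Great Basin creosote, against 4.18 to 4.72 in Great Basin juniper, where they did not overlap. Of these genes 0 were called in Mojave and 1, lower, in Great Basin woodrats. The endothelial list had 1 of 4 genes called higher in each population, and its sums overlapped, at 4.2 to 4.7 in Mojave creosote, against 2.67 to 4.29 in Mojave juniper, and 3.48 to 5.08 in Great Basin creosote, against 2.54 to 4.13 in Great Basin juniper. The 1 bile duct marker measured was not called. The part of cell makeup in the Cyp3a differences was not tested.

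**Figure D4:**
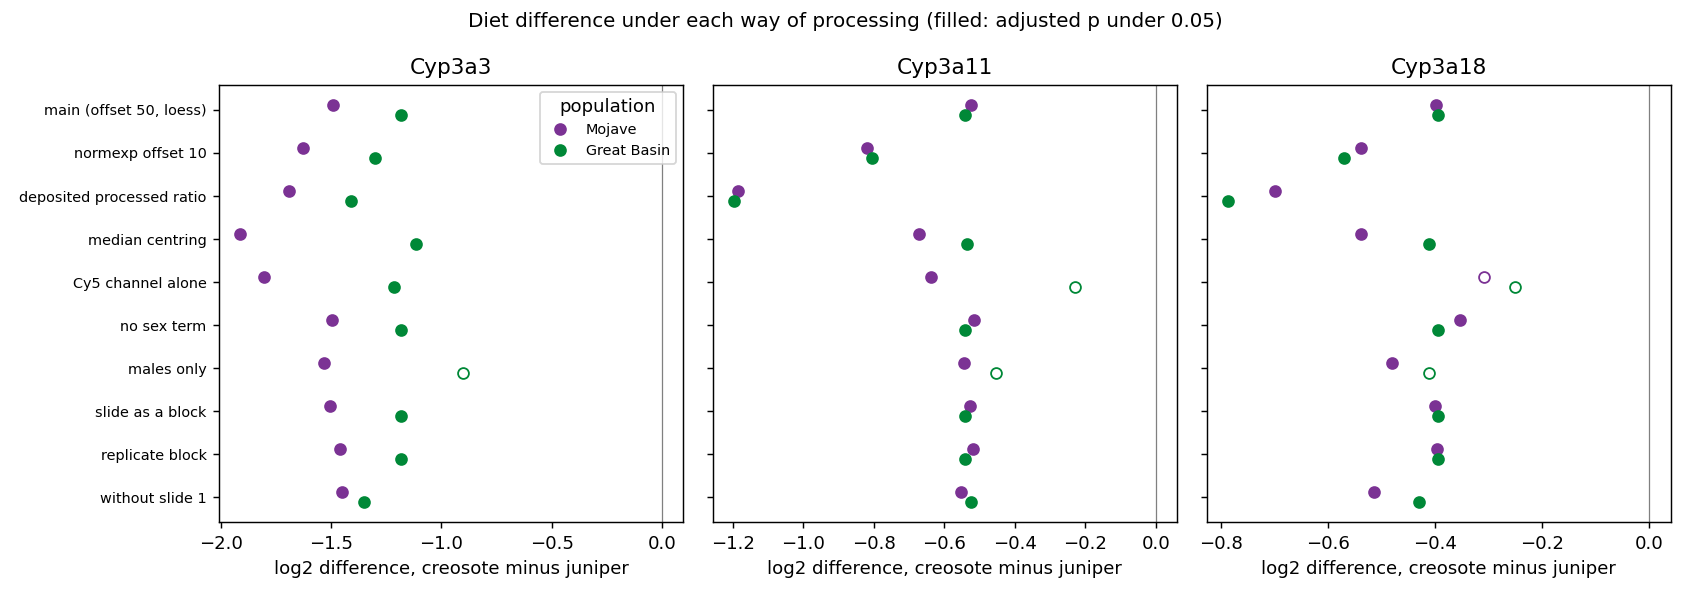
Log2 difference of creosote minus juniper (horizontal axis, its own scale in each panel) for Cyp3a3, Cyp3a11 and Cyp3a18 under the main processing and 9 alternatives, in Mojave (purple) and Great Basin (green) woodrats, filled where the adjusted p was under 0.05. All points lie below 0. The open ones are the Great Basin points of males alone for every gene, and points of the red channel alone for Cyp3a11 in Great Basin and Cyp3a18 in both populations.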

How the data were processed

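The deposited scanner files give the intensity of each spot in both dyes, with local background, as the authors' Agilent Feature Extraction 9.1.3.1 wrote it, per the file headers. The authors also deposited a log2 ratio per spot, which equals the software's processed red over green intensity within 5e-10 and was used as an alternative. In R 4.3.3 with limma 3.58.1, mean signals were background-corrected (normexp, offset 50) and normalised by loess within arrays, with control and outlier spots at weight 0. Probes well above background in red on at least 4 of 16 arrays were kept (30202). All arrays entered 1 model of 4 group means and sex (residual df 11, prior df 4.03). Groups came from the labels, and p-values are two-sided. The fit was tested on simulated data. Precision is limited by how many arrays there are. The members, lists and rules were chosen with earlier results of these data known. Named were every member, the 3 genes most like each by Pearson r (1 of them is not reported here), and up to 4 called genes a list by size of diet difference. Alternatives changed the offset, normalisation, dye channel, filter, probe choice, sex term and blocks, or left out animals or slide 1. Gene symbols are the array's own, and no probe sequences or woodrat genome were used here.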

Additional observations from a re-analysis of the deposited data

How the results depend on the processing

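The Mojave count of 3 Cyp3a probes lower on creosote was 2 from the red channel alone and 2 to 3 without any 1 animal. The Great Basin count of 3 was 1 from the red channel alone, 0 in males alone and 2 to 3 without any 1 animal. The counts between populations, for the interaction and for sex stayed at 0 in the alternatives that were run. The cause of these changes was not tested, except that males alone leave 2 animals in each of 3 groups. Replicate numbers did not pair the samples: same-numbered animals had a median correlation of -0.026 in their deviations from the group means, against 0.016 for other pairs of animals. With the replicate block the Cyp3a counts were 3 and 3, and the calls over all probes 2829 in Mojave and 1029 in Great Basin woodrats, against 3028 and 1182 without it. The calls over all probes in Mojave were 1951 in the deposited processed ratio, 5629 with median centring, 1290 from the red channel alone, 1273 in males alone, and 1987 and 1895 without juniper animals 1 and 2. In Great Basin they were 778 in the processed ratio, 174 in males alone, and 732, 681 and 704 without creosote animal 1, juniper animal 1 and juniper animal 4, and without slide 1 the calls that were higher numbered 213, against 610. Between populations on creosote the 27 calls became 346 without the sex term and 3688 with median centring, and ran from 0 to 620 without any 1 animal.

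Values of the Cyp3a probes that were not called changed sign in some settings, and none of those with a turned sign was called. Between populations on creosote, Cyp3a3 was 0.077 without slide 1. Cyp3a11 was -0.007 with an offset of 10 and in the processed ratio, -0.083 with median centring, -0.32 from the red channel alone and -0.006 in males alone. Cyp3a13 was -0.076 from the red channel alone, and Cyp3a18 was -0.042 with median centring and -0.011 without slide 1. On juniper, the processed ratio gave -0.019 for Cyp3a11, -0.053 for Cyp3a13 and 0.012 for Cyp3a62, and median centring gave -0.003 for Cyp3a13 and 0.047 for Cyp3a62, which was 0.269 in males alone. In the interaction, Cyp3a11 was -0.013 with an offset of 10, -0.134 with median centring, -0.409 from the red channel alone, -0.091 in males alone and -0.031 without slide 1. Cyp3a13 was -0.103 there from the red channel alone, and Cyp3a18 was 0.032 with an offset of 10, 0.089 in the processed ratio and 0.041 without the sex term. For sex, Cyp3a3 was 0.02 with slide as a block, and Cyp3a62 was 0.165 without slide 1. Cyp3a11 was -0.015 for sex in the processed ratio, -0.01 with median centring, -0.117 from the red channel alone and -0.015 without slide 1. The diet difference in Great Basin woodrats was -0.169 for Cyp3a13 in the processed ratio, and that of Ncoa1 in Mojave woodrats was -0.103 with median centring.

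Leaving out 1 animal at a time gave ranges that crossed 0 for 11 such values. On creosote they were -0.189 to 0.078 for Cyp3a3, -0.002 to 0.08 for Cyp3a11 and -0.021 to 0.098 for Cyp3a18. On juniper they were -0.048 to 0.046 for Cyp3a11, -0.04 to 0.066 for Cyp3a13 and -0.411 to 0.248 for Cyp3a62. In the interaction they were -0.027 to 0.077 for Cyp3a11 and -0.077 to 0.054 for Cyp3a18. For sex they were -0.143 to 0.074 for Cyp3a3 and -0.015 to 0.059 for Cyp3a11, and for the Mojave diet difference of Cyp3a62 they were -0.562 to 0.14.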
